A study of Mus musculus with 15 samples.

Results

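Heat shock proteins and the chaperones of the endoplasmic reticulum (ER) were followed in 15 RNA libraries of pressure-overloaded mouse hearts. Their members are the protein-coding genes whose symbols begin with Hspa, Hspb, Hspd, Hspe, Hsph, Hsp90, Dnaja, Dnajb, Dnajc or Pdia with a number, together with Calr, Calr3, Canx, Hsf1 and Hsf2. The rule, which uses names and no measured value, found 84 genes among the 54532 of the table, on 19 chromosomes. Of the 84, 73 reached 0.5 FPKM (fragments scaled to gene length and sequencing depth) in 5 or more libraries, which admitted them to the test, and 11 did not. Of these 11, 10 had at least 1 read in some library, none exceeded 0.553 FPKM, and Pdia2 was at 0 in every library.

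The hearts came from wild-type C57BL/6 mice listed as aged 8 to 10 weeks, all of which carried a transverse aortic constriction (TAC, a surgical narrowing of the aortic arch against which the left ventricle must pump). Whether that is the age at surgery or at collection is not settled here. After 4 weeks of TAC, 15 mice per group were randomised to oral treatment through the drinking water with saline, donepezil (5 mg/kg/day) or encenicline (EVP-6124, 2 mg/kg/day), and the RNA is labelled as 8 weeks of TAC. Donepezil inhibits acetylcholinesterase and encenicline is an agonist of the α7 nicotinic acetylcholine receptor; the series compared raising acetylcholine with activating that receptor in the failing heart. There are 5 libraries per group and no unoperated heart, so every value below is a value under pressure overload. Titles set the groups here; the treatment entered for the library titled donepezil 1 reads saline, and the one for encenicline 1 reads donepezil. Nothing in the labels says outright that each library is a separate animal, so p-values measure the spread between these libraries.

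Chaperones hold unfolded proteins and let them fold. Hsp70 proteins bind short greasy stretches, J proteins (the Dnaj families) deliver the client and start ATP hydrolysis, and exchange factors such as Hsp110 release it, while Hsp90 finishes kinases and receptors and small Hsps keep unfolding proteins from clumping. When proteins unfold in the cytosol, heat shock factor 1 (Hsf1) binds heat shock elements and switches on the inducible copies Hspa1a and Hspa1b with their partners, and when they unfold in the ER, the unfolded protein response raises BiP (Hspa5), Hsp90b1, calreticulin and the disulfide isomerases. Mitochondria have a set of their own around Hspd1, Hspe1 and Hspa9, and heart muscle is rich in the small Hsps of its sarcomeres.

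Reads recovered from the deposited values came to 14496147 to 17176086 per library, 17.4 to 27.0% of them mitochondrially encoded, and the 12 cardiomyocyte markers summed to 17690 to 29000 FPKM. Donepezil 4 and saline 5 stood apart from their groups in the model's library weights, at 0.312 and 0.403, where the others ran from 0.621 to 2.02. Donepezil 4 carried 924 FPKM of 8 fibroblast markers (169 to 196 in the other donepezil libraries) and 17690 of the cardiomyocyte markers (22640 to 24860). Results that rest on either library are given with and without it. Hearts are mixtures, and fewer cells of a type cannot be told apart from less RNA per cell.

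The promoters of 6 members are shown because they carry the letters of the heat shock element or of the ER stress element, and because 4 of the members that saline 5 sets apart, Hspa1a, Hspa1b, Hsph1 and Dnaja1, hold the first kind. A window of 250 bases before to 50 after the RefSeq start was found for 69 of the 84 members (build GRCm38.p6). The heat shock element was searched as GAANNTTC or TTCNNGAA, the ER stress element as CCAAT and CCACG with 9 bases of any kind between them, both on either strand, and capitals mark the matches. The Hspa1a window is chr17:34972107-34972406, minus strand, that of Hspa1b chr17:34959189-34959488, minus strand, that of Hsph1 chr5:149636266-149636565, minus strand, and that of Dnaja1 chr4:40722218-40722517, plus strand. Hsph1 has 2 windows and Dnaja1 has 3, at different starts, and the window shown was picked for the most heat shock element matches. It need not be typical of the gene. In the counts below, a gene holds a match if any of its windows does. The windows with an ER stress element are Hspa5 at chr2:34771840-34772139, plus strand, and Hsp90b1 at chr10:86705395-86705694, minus strand.
Hspa1a: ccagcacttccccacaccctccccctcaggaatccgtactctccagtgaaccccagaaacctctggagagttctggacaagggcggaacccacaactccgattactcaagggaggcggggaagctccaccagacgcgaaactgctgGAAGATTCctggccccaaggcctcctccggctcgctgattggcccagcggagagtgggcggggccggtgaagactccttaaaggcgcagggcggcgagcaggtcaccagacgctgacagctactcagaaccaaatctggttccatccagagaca
Hspa1b: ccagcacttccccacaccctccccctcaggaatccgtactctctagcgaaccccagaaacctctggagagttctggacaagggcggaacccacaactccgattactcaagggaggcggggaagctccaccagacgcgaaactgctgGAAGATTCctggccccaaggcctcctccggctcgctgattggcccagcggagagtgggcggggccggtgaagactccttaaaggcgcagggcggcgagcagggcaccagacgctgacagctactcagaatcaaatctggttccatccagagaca
Hsph1: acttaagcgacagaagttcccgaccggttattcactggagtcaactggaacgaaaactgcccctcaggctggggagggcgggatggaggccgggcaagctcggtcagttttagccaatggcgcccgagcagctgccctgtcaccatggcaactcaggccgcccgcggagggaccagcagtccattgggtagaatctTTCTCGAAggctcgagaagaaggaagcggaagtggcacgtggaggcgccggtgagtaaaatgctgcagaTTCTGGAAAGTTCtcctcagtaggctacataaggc
Dnaja1: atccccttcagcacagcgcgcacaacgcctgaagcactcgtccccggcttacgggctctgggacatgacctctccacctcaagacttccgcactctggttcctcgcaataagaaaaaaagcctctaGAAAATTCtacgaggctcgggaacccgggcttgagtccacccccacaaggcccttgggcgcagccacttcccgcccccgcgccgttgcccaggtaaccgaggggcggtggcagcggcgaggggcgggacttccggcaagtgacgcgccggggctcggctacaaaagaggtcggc
Hspa5: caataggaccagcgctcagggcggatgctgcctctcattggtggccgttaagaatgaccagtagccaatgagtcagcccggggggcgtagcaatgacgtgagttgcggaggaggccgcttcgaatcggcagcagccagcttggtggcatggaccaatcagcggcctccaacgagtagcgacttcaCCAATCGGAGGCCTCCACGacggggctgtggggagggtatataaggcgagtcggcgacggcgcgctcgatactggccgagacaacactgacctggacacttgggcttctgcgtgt
Hsp90b1: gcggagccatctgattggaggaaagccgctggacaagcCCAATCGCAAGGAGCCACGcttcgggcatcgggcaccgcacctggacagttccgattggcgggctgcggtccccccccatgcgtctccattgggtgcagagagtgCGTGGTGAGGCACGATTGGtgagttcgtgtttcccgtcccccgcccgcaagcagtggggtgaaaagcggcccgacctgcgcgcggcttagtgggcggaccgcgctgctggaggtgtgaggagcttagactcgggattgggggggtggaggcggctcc
The Hspa1a and Hspa1b windows differ at 4 of 300 bases, and the longest open reading frames of their transcripts, of 1926 and 1929 bases, are 99.4% identical. Reads of these neighbours may be split between the copies by the authors' counting, so which copy carries the reads is uncertain. Heat shock element letters were in the windows of 16 of the 69 members (23.2%), among 17.0% of the 27025 genes of the table. A longer form of 3 units, in which 2 free bases and a further GAA follow GAANNTTC, and which contains the shorter one, was in 4 members (5.8%; Dnajb6, Hspd1, Hspe1 and Hsph1) and in 0.662% of all genes. ER stress element letters were in 6 members (8.7%; Calr, Canx, Dnajc3, Hsp90b1, Hspa5 and Pdia6) and in 0.137% of all genes. Of the 6 members set apart by saline 5 that have a window, Dnajb1 and Hspa1l matched neither, as did most other members, which says only that these letters are absent from these windows. A match is a description of the letters and not a binding site.

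Levels spanned from Hspb7 to genes near the detection limit. The most abundant member was Hspb7, a small Hsp of cardiac and skeletal muscle, at a mean of 901 FPKM over the 15 libraries, followed by Hsp90ab1, the constitutive cytosolic Hsp90, at 474. Then came the small Hsp Hspb6 at 391, Hspa8, the constitutive Hsp70, at 344, and the small Hsps Hspb1 at 320 and Hspb8 at 261. Hspa9, the mitochondrial Hsp70, stood at 176 and its partner Hspd1, the mitochondrial Hsp60, at 124, above BiP (Hspa5) at 105, the J protein Dnaja2 at 93.5 and calreticulin (Calr) at 77.1. These levels are per gene length. The libraries of Hspb6, from 303 to 513 FPKM, reach those of Hspa8 and Hspb1, so the order of these 3 is not set apart by their spread. Hsf1 and Hsf2 were low, at means of 5.31 and 1.43 FPKM. At the other end Hspbap1, Hspb9, Dnajb3, Dnajb7, Dnajb8, Dnajb13, Dnajc5b, Dnajc5g, Dnajc6, Dnajc22 and Pdia2 were the 11 not tested.

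Saline 5 differed from the other 4 saline libraries in the inducible cytosolic chaperones. Hspa1a and Hspa1b, the heat-inducible Hsp70 genes, were more than an order of magnitude higher there, and the J proteins Dnajb1 and Dnaja1, Hsph1, Hsp90aa1 and Hspa8 were 1.81 to 4.52 times the median of the other 4. No mitochondrial or ER chaperone was 1.5-fold above that median. Hspa1b was at 2.003, 1.495, 2.21, 1.34 and 64.5 FPKM in saline 1 to 5, at 2.19, 2.201, 1.41, 2.39 and 3.36 in donepezil 1 to 5, and at 1.28, 1.28, 2.13, 1.71 and 1.44 in encenicline 1 to 5. The values of Hspa1a were 1.41, 0.897, 2.19, 1.27 and 48.4 FPKM in saline 1 to 5, 1.74, 3.25, 1.04, 1.92 and 2.59 in donepezil 1 to 5, and 1.23, 1.43, 1.91, 1.38 and 1.18 in encenicline 1 to 5. Every library other than saline 5 lay at or below 3.36 FPKM for both genes, so saline 5 stood at 36.8 times the median of the other saline libraries for Hspa1b and 36.1 times for Hspa1a. In reads, that is 3020 of Hspa1b against 63 to 112, and 2399 of Hspa1a against 40 to 118. Among the 13396 genes tested, these were the largest and second largest log2 distances of saline 5 from the median of its group. The genes are close neighbours, Hspa1b at chr17:34956436-34959238 and Hspa1a at chr17:34969190-34972156 (GRCm38, minus strand).

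For Dnajb1, saline 1 to 5 held 5.28, 6.64, 6.596, 5.09 and 26.8 FPKM, donepezil 1 to 5 held 6.63, 7.26, 4.899, 5.97 and 6.99, and encenicline 1 to 5 held 6.66, 9.09, 7.104, 7.76 and 6.396. For Dnaja1, saline 1 to 5 held 6.799, 8.66, 8.03, 7.86 and 26.98 FPKM, donepezil 1 to 5 held 7.94, 10.1, 7.18, 6.88 and 10.7, and encenicline 1 to 5 held 9.13, 10.7, 9.58, 9.30 and 7.52. Both J proteins, which hand clients to Hsp70, were highest in saline 5 of all 15 libraries, at 4.52 and 3.40 times the median of the other saline libraries. Hsph1 was at 7.26, 6.97, 11.4, 8.14 and 19.7 FPKM in saline 1 to 5, at 8.95, 8.54, 7.72, 7.43 and 9.29 in donepezil 1 to 5, and at 11.2, 9.24, 11.3, 10.1 and 11.2 in encenicline 1 to 5. Hsph1, the Hsp110 that releases nucleotide from Hsp70, was 2.55 times that median in saline 5, and its next highest libraries, saline 3 and 3 of the encenicline libraries, lay near 11 FPKM. The values of Hsp90aa1 were 33.2, 32.4, 48.4, 43.98 and 83.9 FPKM in saline 1 to 5, 45.1, 46.8, 39.3, 41.1 and 55.8 in donepezil 1 to 5, and 46.1, 44.02, 47.05, 43.2 and 44.8 in encenicline 1 to 5. Hsp90aa1, the inducible Hsp90, was at 2.17 times the median of the others. For Hspa8, saline 1 to 5 held 265, 316, 305, 299.9 and 546 FPKM, donepezil 1 to 5 held 315, 354, 309, 237 and 382, and encenicline 1 to 5 held 375, 409.7, 335, 376 and 343. Hspa8 in saline 5 was 1.81 times the median of the other 4, with encenicline 2 next at 410 FPKM. Hspa1l, another Hsp70 gene of the same cluster, was at 2.13 FPKM against 1.09 to 1.83, but 71.9% of its gene length overlaps an antisense gene (Gm10501), and whether the counting used strand is not given in the sources used here.

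**Figure D1:**
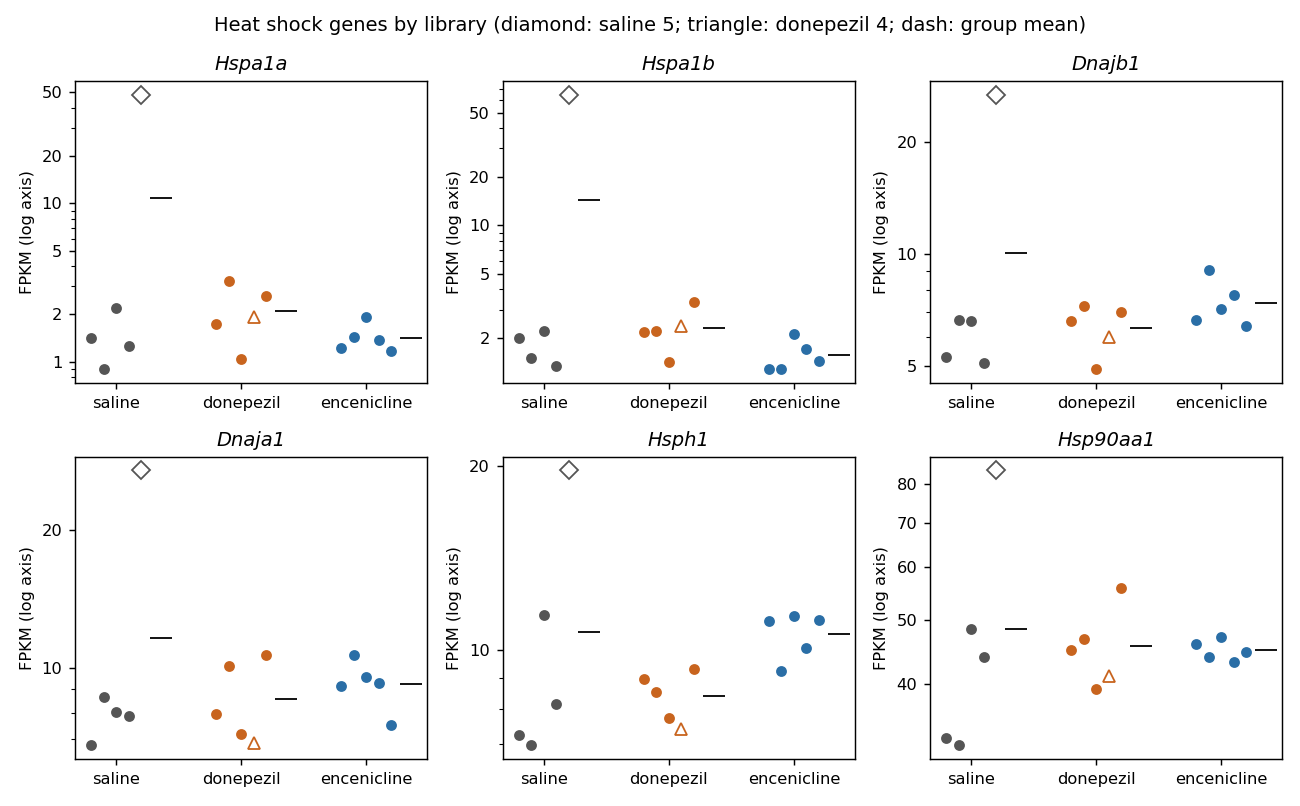
FPKM of 6 heat shock genes in the 15 libraries on log axes, by group, with saline 5 as an open diamond, donepezil 4 as an open triangle and a dash at each group mean. Saline 5 lies above all 14 other libraries in each panel, and the saline mean of Hspa1a and Hspa1b lies above every other saline library because of it.

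These 8 members were at least 1.5-fold above the median of the other saline libraries on the log2(FPKM + 0.5) scale, 8 of the 73 tested, where 5.53% of all genes tested were. Just inside that limit was Hspa1l at a log2 distance of 0.63, and just outside it Hsp90ab1 at 0.56. Dnajc24, Dnajc27 and Dnajc28 were at least 1.5-fold below, 4.11% against 5.43% of all genes. Saline 5 was the highest of all 15 libraries for 12 members and the lowest for 12, each 12 of 73, and 12.8% of all genes tested were above all others there and 12.8% below. Beside the first 7 named above, Hsp90ab1, Hspa2, Dnajc4, Calr and Hsf1 were highest in saline 5. The 12 that were lowest were Dnaja2, Dnaja4, Dnajb6, Dnajb9, Dnajc14, Dnajc16, Dnajc18, Dnajc24, Dnajc27, Dnajc28, Hspa4 and Hspa13. Hsf1 itself was at 6.03 FPKM in saline 5 and 5.04 to 5.55 in the other saline libraries, and Hsf2 at 1.38 and 1.02 to 1.76.

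**Figure D2:**
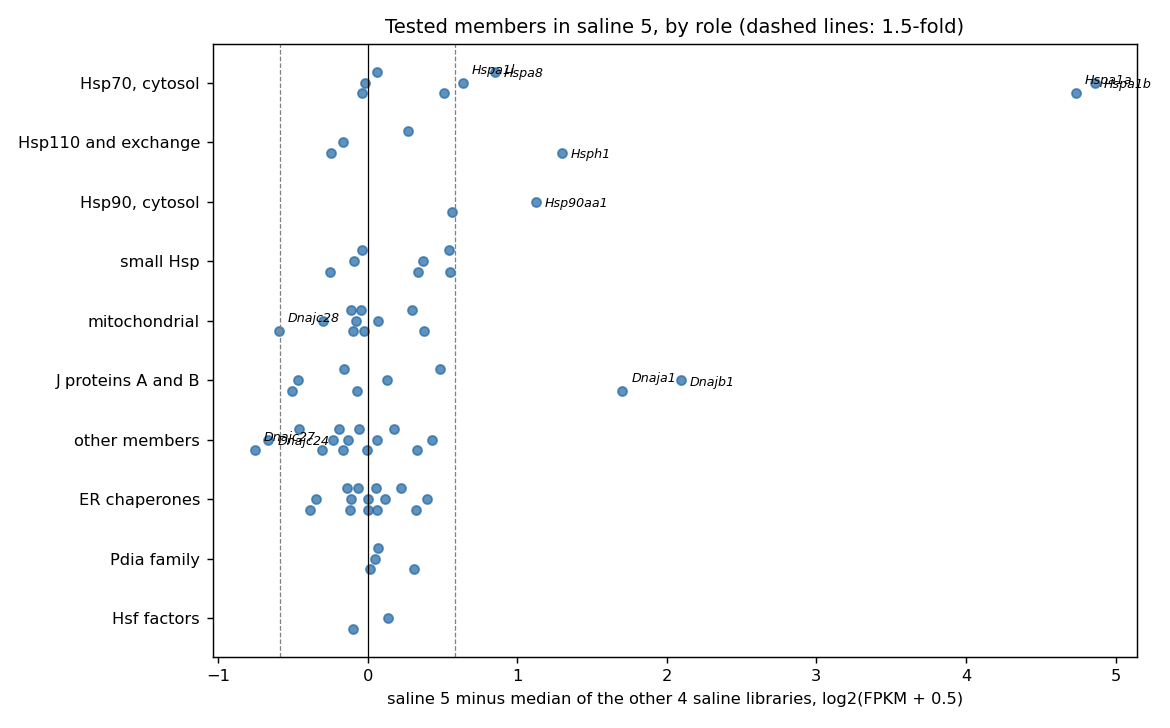
Distance of saline 5 from the median of the other 4 saline libraries in log2(FPKM + 0.5), for the 73 tested members grouped by role, with dashed lines at 1.5-fold. The points beyond the right line are cytosolic Hsp70, Hsp110, Hsp90 and J protein genes, and no ER chaperone or Pdia gene is beyond either line.

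Saline 5 was above all 4 other saline libraries for 29.3% of all genes tested and below all 4 for 28.5%, against which the counts of highest and lowest genes below are to be read. By role, the median distance in saline 5 was 0.57 for the 8 cytosolic Hsp70 genes and 0.84 for the pair of cytosolic Hsp90 genes. For the 7 tested small Hsps it was 0.34, with Hspb1 at 404 FPKM against 221 to 335 and no member past 1.5-fold. The 10 mitochondrial members had a median of -0.06, and Hspd1 and Hspe1, which Hsf1 also drives under heat, were at 127 against 112 to 132 and at 52.6 against 49.8 to 57.3 FPKM. The 14 ER chaperones had a median of 0.00, none past 1.5-fold, with Hspa5 at 121 FPKM against 85.3 to 114 and Hsp90b1 at 41.7 against 37.2 to 47.7. The 4 tested Pdia genes had a median of 0.06. Of a list of 12 members known as Hsf1 targets, 7 were at least 1.5-fold above and 9 above all 4 other saline libraries, and of 10 members known as targets of the unfolded protein response, 0 and 3, the latter near the share of all genes.

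Many, but not all, genes outside the membership that belong to the same response were higher in saline 5. Of 15 co-chaperones and heat shock genes that are not members, 14 were above all 4 other saline libraries (29.3% of all genes were) and 3 at least 1.5-fold above. Stip1, which joins Hsp70 to Hsp90, was at 68.8 FPKM against 37.7 to 41.9, and Chordc1, an Hsp90 co-chaperone, at 9.06 against 4.39 to 5.89. Serpinh1, the collagen chaperone Hsp47, was at 170 against 82.5 to 117, and Cryab, the small Hsp of the sarcomere, at 1193 against 781 to 931. Hmox1 and Zfand2a, stress-inducible genes added after their values were seen, were below all 4, at 6.36 FPKM against 9.002 to 12.7 and at 4.64 against 5.93 to 6.10. Of 19 tested genes of the ER stress response that are not members, 11 were above the other saline libraries, 3 were below them all and 3 were at least 1.5-fold above, among them Xbp1, a transcription factor of that response, at 29.95 FPKM against 16.1 to 21.8.

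Other groups of genes moved in saline 5 too, and their part in the heat shock values was not tested. Of 16 circadian clock genes, a list added after the values were seen, 6 were above and 9 below all 4 other saline libraries, with Nr1d1 at 2.51 FPKM against 13.6 to 28.3 and Arntl at 2.66 against 0.27 to 0.873. Over all libraries other than saline 5, Nr1d1 ran from 3.73 to 28.3 FPKM and Arntl from 0.27 to 3.92, so drug libraries reached beyond the saline 5 value of Arntl. Of 10 early response genes, 6 were at least 1.5-fold above the median and 3 above all 4 others, with Atf3 at 9.14 FPKM against 1.72 to 3.77 and Fos at 5.01 against 2.26 to 8.59. The sum of 8 fibroblast markers was 167 FPKM against 179 to 320, that of 8 macrophage markers 225 against 243 to 383, and that of 12 cardiomyocyte markers 25910 against 19490 to 26420. Mitochondrially encoded reads made up 19.5% in saline 5 and 21.0 to 23.7% in the other saline libraries.

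Other libraries stood out in single roles. In donepezil 4 all 10 mitochondrial members were the lowest of the group, with a median distance of -0.55 from the other 4 donepezil libraries. Hspd1 was at 132, 130.3, 112, 113 and 127 FPKM in saline 1 to 5, at 119.6, 126, 120.1, 72.7 and 128 in donepezil 1 to 5, and at 149.6, 139, 122, 138 and 139 in encenicline 1 to 5. The values of Hspa9 were 181, 175, 152, 174 and 162 FPKM in saline 1 to 5, 186, 179, 180.0, 116 and 195 in donepezil 1 to 5, and 204, 193, 167, 181 and 191 in encenicline 1 to 5. Hspd1 and Hspa9 in donepezil 4 lay below all 14 other libraries, while the remaining 14 of each kept to 112 to 150 and 152 to 204 FPKM. The 4 tested Pdia genes were all highest in donepezil 4 (median distance 0.40), as 26.6% of all genes were, where Pdia5 was at 2.54 FPKM against 0.7502 to 1.37. Of the 73 members, 38 were the lowest of their group there, 52.1% against 33.8% of all genes tested. Only 5 were at least 1.5-fold below and 1 above, where 5.68% and 7.91% of all genes were. Its fibroblast and cardiomyocyte marker sums are given above, and the macrophage markers summed to 438 FPKM against 193 to 265; their part in these values was not tested. In encenicline 4, 6 of the 7 tested small Hsps were the highest of the group (median distance 0.47), where 26.2% of all genes were, with Hspb1 at 413 FPKM against 266 to 346 and Hspb3 at 13.96 against 5.67 to 10.6. In saline 1 all 4 tested Pdia genes were the lowest of the group (median distance -0.37), where 18% of all genes were.

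**Figure D3:**
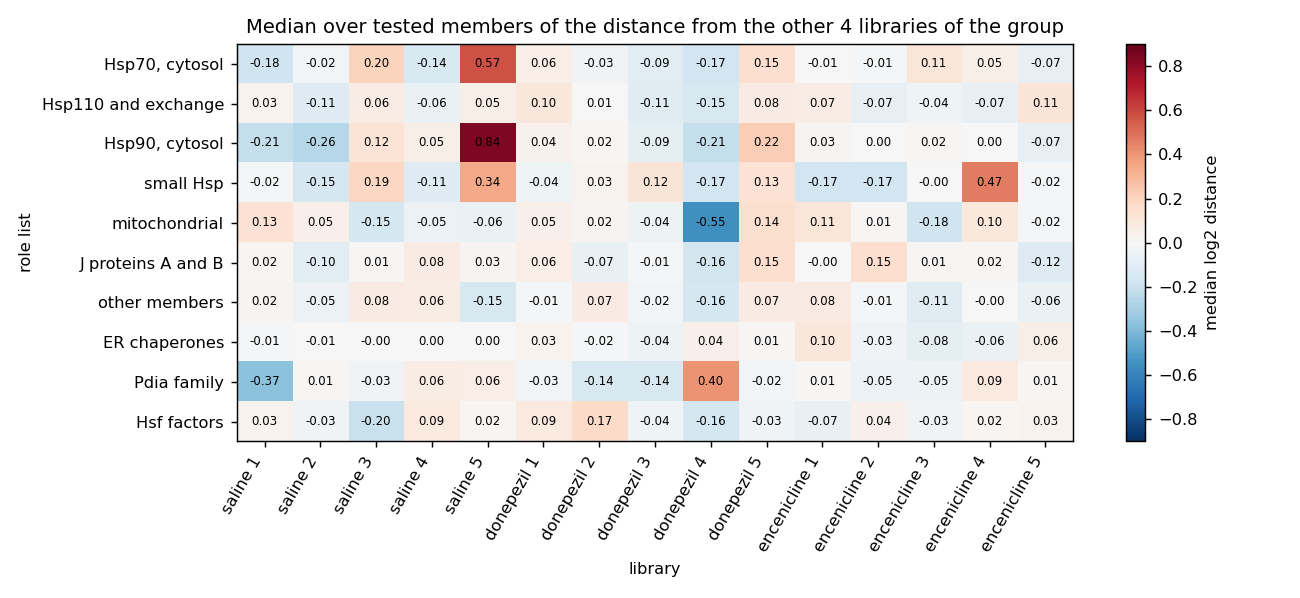
Median distance of the tested members of each role from the other 4 libraries of the same group, in log2(FPKM + 0.5), for each of the 15 libraries. Saline 5 is high for the cytosolic Hsp70 and Hsp90 genes (0.57 and 0.84), donepezil 4 is low for the mitochondrial members (-0.55) and high for the Pdia genes (0.40), and encenicline 4 is high for the small Hsps (0.47).

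Donepezil against saline asked what raising acetylcholine did to these genes. Of 73 tested members, 2 passed the test: Calr3 rose and Hspa12a fell. That is 2.74% of the members, where 2.12% of all genes tested passed, 1.18% of them upward and 0.941% downward. The other 71 had no adjusted p under 0.05, the main heat shock and ER chaperones among them. Calr3 was at 5.97, 6.34, 4.72, 5.66 and 5.82 FPKM in saline 1 to 5, at 9.803, 10.8, 8.13, 6.58 and 9.89 in donepezil 1 to 5, and at 9.77, 12.5, 7.07, 9.81 and 9.72 in encenicline 1 to 5. All 5 donepezil libraries lay above the highest saline library, with means of 9.04 ± 1.68 against 5.703 ± 0.602 FPKM (SD, n = 5 each). Calr3, a calreticulin paralogue known in mouse as a chaperone of sperm proteins in the testis, rose 1.52-fold (log2 0.61, SE 0.14, 95% interval 0.31 to 0.91, Benjamini-Hochberg adjusted p in limma = 0.0364 over all genes tested). The call ended when any of 9 of the 15 libraries was left out, with adjusted p up to 0.0966, and without saline 5 the change was 0.62 with an adjusted p of 0.0554 in the same limma fit. Calr3 had 168 to 403 reads per library, and 7 testis marker genes summed to 0.145 to 1.02 FPKM over the 15 libraries, with Acrv1 at 0 in all of them.

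The values of Hspa12a were 4.44, 4.98, 4.34, 4.53 and 4.696 FPKM in saline 1 to 5, 3.61, 3.39, 3.29, 2.98 and 3.79 in donepezil 1 to 5, and 4.38, 4.37, 4.52, 3.56 and 4.49 in encenicline 1 to 5. The highest donepezil library, at 3.79 FPKM, lay below the lowest saline library at 4.34. Hspa12a, a distant relative of Hsp70, fell by 0.38 on the log2 scale (SE 0.08, 95% interval -0.54 to -0.22, Benjamini-Hochberg adjusted p in limma = 0.0168), from 4.597 ± 0.249 to 3.41 ± 0.312 FPKM (SD, n = 5 each). Without saline 5 the change was -0.38 (limma, adjusted p = 0.0339) and without donepezil 4 -0.34 (limma, adjusted p = 0.025), and without saline 2 the adjusted p was 0.0541. A stretch of 2.9% of its gene length overlaps Eno4 on the other strand. Some endothelial markers moved in the same comparison: of 8, Kdr (-0.68) and Emcn (-0.61) fell (Benjamini-Hochberg adjusted p in limma = 0.0465 and 0.00407). The 8 had a median of -0.15, with 7 below 0 and 1 above, up to 0.42. Their sum was 390 to 499 FPKM with saline and 398 to 501 with donepezil. The part of these markers in the Hspa12a value was not tested. With only the 10 libraries compared, with the groups of the treatment field, or without the 2 libraries whose title and treatment field differ, neither member passed.

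**Figure D4:**
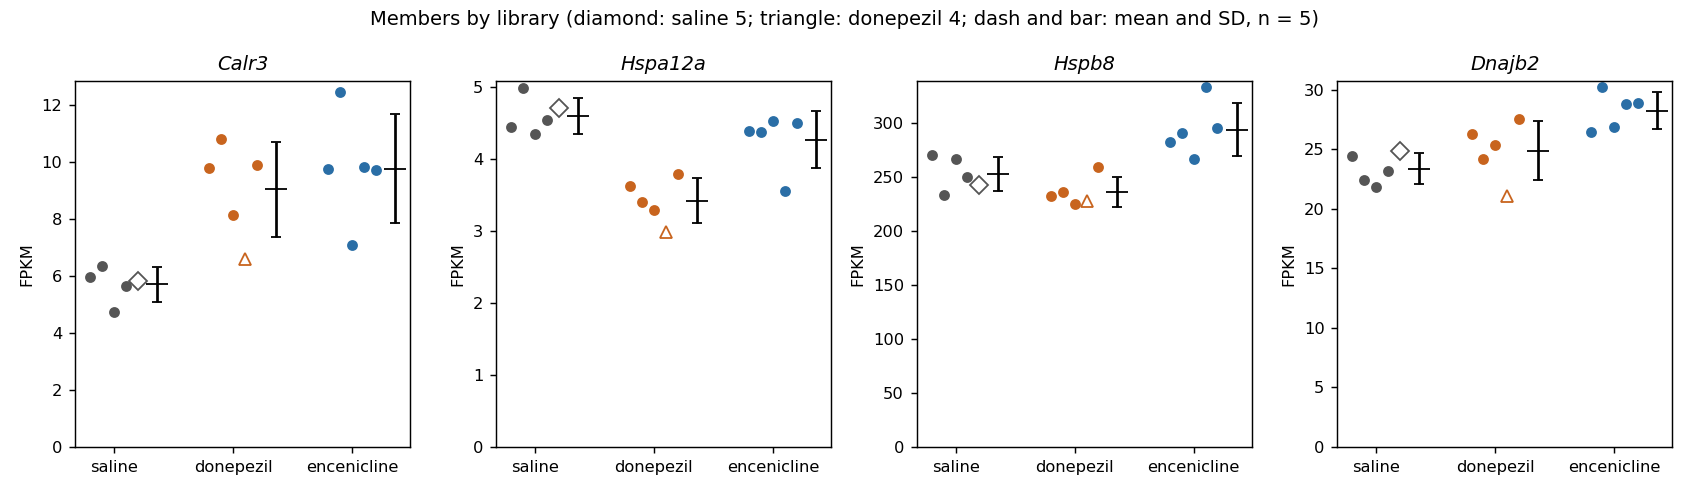
FPKM of Calr3, Hspa12a, Hspb8 and Dnajb2 in the 15 libraries on linear axes from 0, by group, with saline 5 as an open diamond, donepezil 4 as an open triangle, and dash and bar at the mean and SD of 5 libraries. Calr3 is above the saline range in both drug groups, Hspa12a is below it in all donepezil libraries and in encenicline 4, and Hspb8 and Dnajb2 are higher with encenicline, without a passed test.

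Next in order of p came Dnajb6, a J protein against aggregation, at log2 0.29 (SE 0.10), the ER J proteins Dnajc1 at 0.21 (SE 0.07) and Dnajb9 at 0.26 (SE 0.10), and the mitochondrial Dnajc11 at -0.20 (SE 0.07), none of which passed (Benjamini-Hochberg adjusted p in limma of 0.137 to 0.194). Without saline 5, the lowest of all 15 libraries for Dnajb6 and Dnajb9, the difference of Dnajb6 was 0.19 (SE 0.07) and that of Dnajb9 0.19. Without donepezil 4 the difference of Dnajc11 was -0.15. Dnajc1 was at 2.44 to 2.77 FPKM with donepezil and 1.85 to 2.42 with saline, and did not overlap. Groups did not overlap for 3 members (4.11%, against 3.9% of all genes), Calr3 and Dnajc1 upward (2.11% of all genes) and Hspa12a downward (1.79% of all genes). An unadjusted p under 0.05 was given to 9 members (12.3%, against 16.1% of all genes). The median log2 fold change of the members was -0.04, and that of all genes -0.00; 30 members were above 0 and 43 below. Without donepezil 4 the median was 0.02 with 40 above 0, without saline 5 it was -0.00 with 35 above 0, and with TPM it was -0.11 with 20 above 0. With TPM the median of all genes was itself -0.07. Among the ER chaperones 9 of 14 were above 0 (median 0.10), with Canx at 0.18 (SE 0.09), Hsp90b1 at 0.15 (SE 0.09), Hspa5 at -0.04 (SE 0.14) and Calr at -0.11 (SE 0.08). Without saline 5 the last pair were at 0.03 and -0.05, and without donepezil 4 Hspa5 was at 0.08. The mitochondrial members had a median of -0.10 with 2 of 10 above 0, and 0.03 with 7 of 10 without donepezil 4.

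Encenicline against saline asked the same of direct activation of the receptor. No member passed, as no gene of the 13396 did (0.0% of all genes by limma with Benjamini-Hochberg adjustment, and 0 members by limma voom on the recovered reads). Calr3 and Dnajb2 were the only members whose groups did not overlap, 2.74% of 73 against 1.69% of all genes, and both were higher with encenicline (0.963% of all genes were higher without overlap and 0.732% lower). Calr3 stood at 9.77 ± 1.91 FPKM with encenicline (SD, n = 5), with a log2 difference of 0.71 (SE 0.14, 95% interval 0.41 to 1.01, Benjamini-Hochberg adjusted p in limma = 0.368). The values of Dnajb2 were 24.5, 22.4, 21.9, 23.1 and 24.9 FPKM in saline 1 to 5, 26.3, 24.2, 25.3, 21.03 and 27.5 in donepezil 1 to 5, and 26.5, 30.3, 26.8, 28.8 and 28.8 in encenicline 1 to 5. The lowest encenicline library of Dnajb2, a J protein that hands clients to the proteasome, was above the highest saline library at 24.9 FPKM. Its log2 difference was 0.27 (SE 0.07, Benjamini-Hochberg adjusted p in limma = 0.428). Hspb8, the small Hsp that works with Bag3 in chaperone-assisted autophagy, differed by 0.22 (SE 0.08, adjusted p = 0.503 by limma with Benjamini-Hochberg adjustment). The ER chaperones Canx, Hsp90b1 and Dnajb9 followed at 0.22, 0.21 and 0.23 with SE of 0.09, 0.09 and 0.10. Without saline 5 the difference of Dnajb9 was 0.16.

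For Hspa5, saline 1 to 5 held 92.1, 114, 85.3, 91.8 and 121 FPKM, donepezil 1 to 5 held 100.3, 131, 87.7, 69.2 and 108, and encenicline 1 to 5 held 119.5, 123, 105, 113 and 116. BiP ran from 105 to 123 FPKM with encenicline, overlapping both other groups, and its difference from saline was 0.20 (95% interval -0.10 to 0.51). An unadjusted p under 0.05 was given to 9 members (12.3%, against 9.22% of all genes). The median over the members was 0.06 and over all genes 0.00, and 50 of 73 were above 0 (0.09 and 52 without saline 5). These medians turned with the scaling: at an equal sum per library (TPM), which shifts the median of all genes by -0.135, the members' median was -0.10 and 15 were above 0, and 28 were above 0 when mitochondrial genes were left out of the sum. The 10 mitochondrial members had 9 above 0 (median 0.11). With TPM 3 of these 10 were above 0 (median -0.06, against -0.135 for all genes). Without mitochondrial genes in the sum 5 were above 0 (median 0.01, against -0.08 for all genes).

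The drug comparisons share the saline libraries, and saline 5 set the inducible genes in both of them. With all libraries Hspa1a differed by -0.54 (SE 0.71) with donepezil and -0.92 (SE 0.71) with encenicline, and Hspa1b by -0.68 (SE 0.72) and -1.10 (SE 0.72). Without saline 5 those became 0.40 (SE 0.23) and 0.02 (SE 0.23) for Hspa1a, and 0.30 (SE 0.18) and -0.13 (SE 0.18) for Hspa1b. Dnajb1 went from -0.33 to 0.10 with donepezil and from -0.12 to 0.30 with encenicline, and Hsph1 from -0.23 to 0.01 and from 0.09 to 0.33. Hspa8 went from -0.08 to 0.09 and from 0.13 to 0.31, and Hsp90aa1 from -0.00 to 0.22 and from -0.01 to 0.21. None of these passed with or without it, and without saline 5 the smallest adjusted p among them was 0.411 (Hsph1 with encenicline, limma with Benjamini-Hochberg adjustment). The intervals that include saline 5 are wide: -2.05 to 0.98 for Hspa1a with donepezil on the log2 scale.

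**Figure D5:**
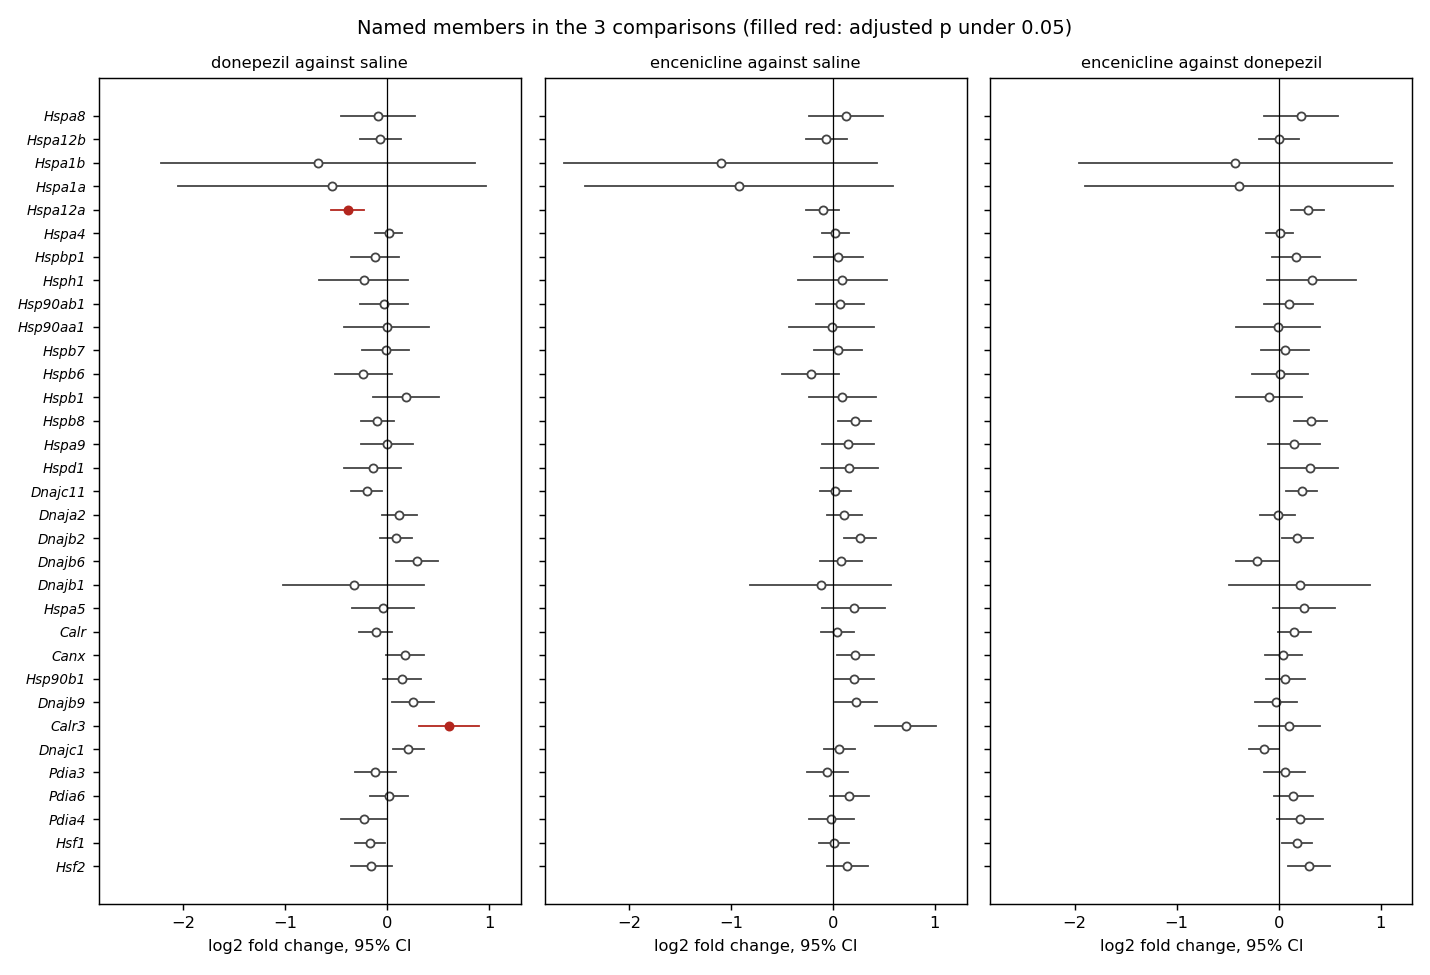
Log2 fold changes of 33 named members with 95% intervals in the 3 comparisons, first-named group minus second, with filled red points where the adjusted p was under 0.05. Calr3 and Hspa12a are the only filled points, both in donepezil against saline, and the widest intervals are those of Hspa1a, Hspa1b and Dnajb1.

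Encenicline against donepezil set the drugs against each other at the doses given, which differ. No member passed, where 0.933% of all genes tested did, 0.44% upward and 0.493% downward (limma with Benjamini-Hochberg adjustment; 0 members also by limma voom), and 10 had an unadjusted p under 0.05 (13.7%, against 15.0% of all genes). Hspb8 was at 271, 233, 267, 250.3 and 243 FPKM in saline 1 to 5, at 233, 237, 225, 228 and 259.5 in donepezil 1 to 5, and at 282, 291, 267, 334 and 296 in encenicline 1 to 5. The lowest encenicline library of Hspb8 was above the highest donepezil library, with a log2 difference of 0.31 (SE 0.08, 95% interval 0.15 to 0.47, Benjamini-Hochberg adjusted p in limma = 0.0621). Hspa12a was higher with encenicline by 0.28 (SE 0.08, Benjamini-Hochberg adjusted p in limma = 0.0898), with encenicline 4 at 3.56 FPKM inside the donepezil range. With library weights in the fit, both Hspb8 and Hspa12a passed (Benjamini-Hochberg adjusted p in limma = 0.0244 and 0.0313). Calr3 differed by 0.10 between the drugs (95% interval -0.19 to 0.40), and by 0.00 without donepezil 4.

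Both heat shock factors were higher with encenicline without passing, Hsf2 by 0.30 (SE 0.10, Benjamini-Hochberg adjusted p in limma = 0.162) and Hsf1 by 0.18 (SE 0.07, adjusted p = 0.234 in the same limma fit). Without donepezil 4 Hsf2 differed by 0.27 and Hsf1 by 0.14. For Hsf2, saline 1 to 5 held 1.499, 1.53, 1.02, 1.76 and 1.38 FPKM, donepezil 1 to 5 held 1.19, 1.41, 1.15, 1.13 and 1.28, and encenicline 1 to 5 held 1.52, 1.699, 1.59, 1.61 and 1.68. Hsf2, a factor that forms mixed trimers with Hsf1, did not overlap between the drugs, and its saline libraries spanned both. Dnajc11 differed by 0.22 (SE 0.07) and did not overlap either, and without donepezil 4 it differed by 0.18. In all, groups did not overlap for 5 members (6.85%, against 4.07% of all genes). Hspb8, Hsf2, Dnajc11 and Calr were higher with encenicline (2.0% of all genes) and Dnajc1 was lower (2.07% of all genes). The mitochondrial members were all above 0, 10 of 10, at a median of 0.21, which was 0.11 with 8 of 10 above 0 without donepezil 4. Hspd1 differed by 0.30 (SE 0.13) and by 0.15 (SE 0.07) without it, and Hspe1, the co-chaperonin of Hspd1, by 0.34 (SE 0.14) and 0.20 (SE 0.10). The members' median was 0.07 against 0.00 for all genes, with 50 of 73 above 0. Without donepezil 4 the median was 0.04 with 44 above 0. Another scaling moved the count as well: 35 were above 0 with TPM, where the members' median was -0.00, and 41 without mitochondrial genes in the sum. With these scalings the median of all genes was -0.07 and -0.05.

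Genes of the same pathways outside the membership gave few calls. Of 15 further heat shock genes and co-chaperones, 0 passed in any of the comparisons (limma with Benjamini-Hochberg adjustment; an unadjusted p under 0.05 was given to 1, 2 and 3 of them in donepezil against saline, encenicline against saline and encenicline against donepezil). Of 19 tested genes of the ER stress response, 1 rose with donepezil: Herpud1, which acts in the removal of misfolded ER proteins, by 0.82 (SE 0.20, Benjamini-Hochberg adjusted p in limma = 0.0433). Of 10 mitochondrial proteases and import or exchange factors, 1 rose with donepezil: Clpx, the unfoldase of a matrix protease, by 0.62 (SE 0.14, Benjamini-Hochberg adjusted p in limma = 0.0358). None of either list fell, and none passed in the other comparisons. With encenicline against saline, Herpud1 differed by 0.41 (SE 0.20) without passing. A further list of 9 heat shock and stress genes holds some genes counted above, with Hmox1 and Zfand2a added after their values were seen. Of these 9, 1 rose with donepezil against saline, and 1 was lower with encenicline than with donepezil. Log2 differences in that list reached 1.27 in the former comparison and -1.39 in the latter. Hmox1 was at 14.8 to 39.1 FPKM with donepezil and 6.36 to 12.7 with saline.

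Some pairs of members varied together within the groups. Every permutation p below includes saline 5, and only r is given without it. Across the 15 libraries, after centring on group means, 8 pairs fixed by name were examined with a permutation test within groups (100000 permutations, two-sided, Benjamini-Hochberg over the 8 pairs). Hsph1 and Hsp90aa1 went together (Pearson r 0.953, adjusted permutation p = 0.0004; Spearman rho 0.904, adjusted permutation p = 0.00344), and r was 0.794 without saline 2 and saline 5. Hspa1a and Hspa1b had r 0.981 (adjusted permutation p = 0.00576) and rho 0.893 (adjusted permutation p = 0.0106), and r 0.728 without those libraries; reads split between the near-identical copies were not tested for their part in it. Hspa1a and Hsph1 had r 0.908 (adjusted permutation p = 0.0203) but rho 0.586 (adjusted permutation p = 0.0953), and r fell to 0.489 without them, so that relation rests on these libraries. Hspb1 and Cryab had r 0.695 (adjusted permutation p = 0.045), rho 0.529 (adjusted permutation p = 0.16), and r 0.124 without saline 5 and encenicline 4, so that relation rests on those. Hspa5 had r 0.456 with Hsp90b1 (rho 0.396), -0.494 with Pdia4 (rho -0.207) and 0.404 with Hspa1a (rho 0.393), and Hspa1a had r 0.236 with Fos (rho 0.179). These 4 pairs had adjusted permutation p of 0.146, 0.213, 0.146 and 0.664 for r and of 0.232, 0.602, 0.232 and 0.602 for rho, and without the 2 libraries farthest out r was 0.262, 0.314, 0.398 and -0.0112, turning its sign for Pdia4 and Fos.

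Among tested protein-coding genes outside the membership, those most like Hspa5 over the 15 centred libraries were Derl1 (Pearson r 0.936), Hopx (0.934), Ybx2 (0.923), Emc8 (0.92) and Aes (0.911). Most like Calr3 were Acot1 (0.901), Esrra (0.897), Cabcoco1 (0.886), Tmem11 (0.881) and Rab7 (0.878), and Acot1 and Esrra also led without saline 5 (0.911 and 0.896). Most like Hspa1a were Prpf39 (0.95), Rrnad1 (0.913), Siah2 (0.913), Mosmo (0.91) and Srprb (0.906), and none of these was among the first 5 without saline 5, led by 9930104L06Rik (0.916) and Tiam2 (0.84). These are descriptions over 15 libraries that share their group means, given with no test.

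Some members share sequence or exons with other rows of the table. The processed pseudogenes Hspd1-ps3 and Dnajc19-ps reached 13.1 and 12.4 FPKM, so reads of Hspd1 and Dnajc19 may be split with them. Exons on the other strand cover 44.1% of the gene length of Dnaja4 (Wdr61), 30.2% of Hspb2 (Cryab), 26.2% of Dnajc30 (Bud23), 19.0% of Hspa1a (Gm20481) and 17.0% of Dnajc14 (Ormdl2). Without a stated strand setting, reads of these pairs cannot be told apart.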

How the data were processed

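RNA of mouse hearts was sequenced in 15 libraries, 5 per group. The deposited table gives FPKM and gene length per gene. The build GRCm38 and the tools featureCounts 1.5.0-p3, DESeq 1.8.3 and HISAT are listed, per the submitters' processing notes, with no role or order; strandedness and the library total behind each FPKM are not given in the sources used here. FPKM times length gave whole reads, to within 0.05, in 100% of values, 14496147 to 17176086 per library. Libraries were grouped by title, and 0 sample columns stayed unmapped.

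The limma-trend method (limma 3.58.1, R 4.3.3) was run on log2(FPKM + 0.5) of all 15 libraries without a block, for the 13396 genes that reached 0.5 FPKM in 5 or more of them. Tests are two-sided, Benjamini-Hochberg adjusted over all genes and called under 0.05. Fold changes on this scale understate the change of low genes. The fit was tested on simulated data. The spread of a library is its log2 distance from the median of the other 4 of its group. Tables, motif searches and figures were made in Python 3.11.15 (pandas 2.3.3, NumPy 2.4.6, SciPy 1.17.1, matplotlib 3.10.9), with RefSeq promoters on GRCm38.p6 matched by symbol and gene overlaps from a GRCm38 annotation.

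Members and lists were chosen with earlier results of these data known, and the clock list, Hmox1 and Zfand2a after their values were seen. Members named with statistics are those called, the 6 smallest p per comparison, the 2 most abundant per role, and 15 chosen by name; members named for single libraries, and Dnaja1, Hspa1l, Hspe1 and Pdia5, were named after their values were seen. Alternatives were pseudocounts of 0.1 and 1, no filter, a filter at 2 FPKM, 4 scalings (equal sum, equal sum without mitochondrial genes, median ratios, quantiles), limma voom on recovered reads, library weights with a robust prior, the 10 libraries compared, the groups of the treatment field, leaving out the 2 conflicting libraries, a replicate block, each library left out and, added after the data were seen, saline 5 and donepezil 4 left out together.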

Additional observations from a re-analysis of the deposited data

Results flagged for a closer look

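In groups of 5 libraries, the gap of the highest or lowest library to its neighbour, as a share of the whole range, exceeded 0.71 for 12 of 99 pairs of a named member and a group. The limit is meant to flag about 1 in 20 groups by chance. The named members were chosen with results of these data known, so the count of flags is a description and not a test. A share of flags over all genes is not given, and saline 5 was the highest of its group for 29.3% of all genes tested. The pairs are not independent, since libraries are shared. Of the 12, 5 fell on saline 5. Its values were highest for Hspa1b (0.892), Dnajb1 (0.845), Hsp90ab1 (0.833, with 641 FPKM against 414 to 446), Hspa1a (0.815) and Hspa8 (0.756). Donepezil 4 was lowest for the mitochondrial chaperones Hspd1 (0.879) and Hspa9 (0.83). Saline 1 was lowest for the disulfide isomerases Pdia3 (0.803, with 40.3 FPKM against 49.7 to 52.3) and Pdia4 (0.729, with 9.24 against 11.5 to 12.4). In the encenicline group, encenicline 4 was lowest for Hspa12a (0.856, with 3.56 FPKM against 4.37 to 4.52), and encenicline 3 was highest for Hspb7 (0.719, with 1083 against 843 to 905) and Hspa12b (0.716, with 26.8 against 19.6 to 21.4).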

How the results depend on the processing

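Over 30 alternative fits, the members called with donepezil against saline were 1 without a filter (Hspa12a) and 0 with only the 10 libraries compared, with the groups of the treatment field, and without donepezil 1 and encenicline 1; with single libraries left out they were 0 to 2, and 0 only without saline 2. Encenicline against donepezil gave 2 calls with library weights and 0 to 1 with single libraries left out (Hspb8 without donepezil 5, Hspa12a without encenicline 4), and encenicline against saline gave 0 in every fit. Deviations of same-numbered libraries had r of -0.0873 to 0.195 (median 0.0382), and those of differently numbered ones -0.297 to 0.417 (median -0.0202). These values cannot tell whether the numbers mark a pairing or a batch, since a weak one could leave r this low. A replicate block gave 2, 0 and 0 calls. The members' median in encenicline against saline was -0.0988 with TPM and -0.0316 without mitochondrial genes in the sum, where the median of all genes was -0.135 and -0.0755; the cause was not tested. TPM shifted the median of all genes by -0.0688 and -0.0687 in the comparisons of donepezil with saline and of encenicline with donepezil. Signs turned for the genes that saline 5 sets. With donepezil, Hspa1a ran from -0.88 to 0.40 with single libraries left out, Hspa1b from -0.99 to 0.30, Dnajb1 from -0.48 to 0.10 and Hsph1 from -0.35 to 0.011, and Hspa1a was 0.050 with library weights. With encenicline, Hspa1a ran from -1.27 to 0.016, Dnajb1 from -0.27 to 0.30 and Hsph1 from -0.025 to 0.33, Dnajb1 was 0.12 with library weights and Hsph1 -0.065 with TPM. Without saline 5 and donepezil 4 together, Hspa1a, Hspa1b, Dnajb1 and Hsph1 were 0.41, 0.28, 0.11 and 0.051 with donepezil, and Hspa1a and Dnajb1 0.016 and 0.30 with encenicline. The count of members 1.5-fold below in saline 5 was 1 with a pseudocount of 1, and that above was 6 to 11 over pseudocounts, filters and scalings. The correlation of Hspa5 with Hsp90b1 was 0.0609 with TPM, that with Pdia4 -0.218, and that of Hspb1 with Cryab 0.864; with single libraries left out Hspa5 and Pdia4 ran from -0.682 to -0.11, Hspb1 and Cryab from 0.506 to 0.85, Hspa1a and Hsph1 from 0.575 to 0.948, Hspa1a and Hspa1b from 0.732 to 0.993, and Hsph1 and Hsp90aa1 from 0.834 to 0.971. With 5 libraries per group the median SE of a member was 0.1035, and members under 0.5 FPKM were not tested.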
